A study of Mus musculus with 8 samples.

Results

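The interferon regulatory factors are a family of DNA-binding proteins, and their mRNAs were measured in sorted pre-BII cells of mice lacking the transcription factor Aiolos, the coactivator OBF-1 or both. All probe sets annotated to Irf1, Irf2, Irf3, Irf4, Irf5, Irf7, Irf8 and Irf9 were taken, which gave 14 of the 22626 probe sets on the array for these 8 genes. Irf3 had 4 probe sets, Irf4, Irf5 and Irf8 had 2 each, and the other genes had 1 each. None of the 14 was annotated to a further gene. Of the 14, 12 had a mean intensity of at least 100 in at least 1 genotype, and 2 (Irf7 and 1 of Irf3) did not. Intensity here is the brightness of a probe set on a linear scale after array normalization, and it is comparable between genotypes for 1 probe set but not between probe sets.

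The 4 genotypes were the Aiolos/OBF-1 double mutant, the single mutant of Aiolos, that of OBF-1 and wild type, all of strain Bl6 and 7 weeks old by the labels, with 2 arrays each. The mutants carry deletions of Aiolos (Ikzf3), of OBF-1 (Pou2af1) or of both genes. According to the methods of the study, each array held RNA of B220+ CD25+ pre-BII cells sorted from a pool of 8 mice, and the 2 pools of a genotype were independent, whereas the labels name bone marrow and, for the mutants, a single mouse. P-values measure the spread between such arrays only. In sorted bulk samples of this kind, fewer cells of a type and less RNA per cell cannot be told apart.

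Pou2af1 had intensities of 170 and 273 in double-mutant, 2434 and 2842 in Aiolos single-mutant, 241 and 236 in OBF-1 single-mutant, and 2761 and 2678 in wild type pre-BII cells, so all arrays matched their labels for OBF-1. No probe set of Ikzf3 was analysed here. Of 13 measured pre-BII markers, 12 reached an intensity of 100, and their summed intensity was 31914 to 32070 in the double mutant, 33416 to 33988 in the Aiolos single mutant, 28387 to 28913 in the OBF-1 single mutant and 31739 to 32348 in wild type. These near-equal sums of double mutant and wild type hold opposite changes, with 6 markers higher and 3 lower in the double mutant, among them Igll1 (5656 in the double mutant and 304 in wild type) and Vpreb3 (1798 in the double mutant and 5909 in wild type). Of 13 measured granulocyte and monocyte markers, 12 reached 100 and 7 were higher in the double mutant than in wild type, with sums of 28628 to 29078 in the double mutant, 26283 to 27123 in the Aiolos single mutant, 28097 to 31865 in the OBF-1 single mutant and 23122 to 23177 in wild type. Of 6 macrophage markers, 4 were higher in the double mutant, with sums of 504 to 641 in the double mutant, 419 to 433 in the Aiolos single mutant, 528 to 672 in the OBF-1 single mutant and 350 to 387 in wild type, so that the sums were higher on the 4 arrays without OBF-1 than on the 4 with it, as Irf4 was. Of the measured erythroid markers 1 was higher, with sums of 544 to 678 in the double mutant, 475 to 629 in the Aiolos single mutant, 591 to 869 in the OBF-1 single mutant and 474 to 484 in wild type. Of the T and NK cell markers limma called 0, with sums of 486 to 511 in the double mutant, 497 to 508 in the Aiolos single mutant, 450 to 484 in the OBF-1 single mutant and 428 to 457 in wild type. Over all genes, 4.88% were higher and 4.11% lower in the double mutant than in wild type. The part of such cells in the results for the family was not tested. Fluidics station 1 washed the double-mutant and Aiolos single-mutant arrays, and fluidics station 2 the OBF-1 single-mutant and wild type arrays. Station and genotype cannot be told apart in the comparisons that cross stations, whereas the comparisons of OBF-1 single mutant with wild type and of double mutant with Aiolos single mutant lie within 1 station.

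Interferon regulatory factors share an N-terminal DNA-binding domain that recognizes GAAA repeats, as found in the interferon-stimulated response element. IRF4 and IRF8 are mainly restricted to haematopoietic cells, bind weakly alone and are recruited to composite elements with the Ets factors PU.1 and Spi-B. In pre-B cells they act redundantly to limit pre-B cell receptor signalling and to promote rearrangement of the immunoglobulin light chain genes. IRF1 activates and IRF2 mostly antagonizes interferon-inducible genes, IRF3, IRF5 and IRF7 are activated by phosphorylation downstream of nucleic acid sensors and Toll-like receptors, and IRF9 takes part in the response to type I interferon.

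The sequences 5′ of 3 of the genes are shown because Irf4 and Irf8 are the members whose mRNA differed between genotypes and Irf3 is the member whose window held an octamer. The sequences are from RefSeq (GRCm38.p6), each from 250 bases before to 50 bases after the annotated start, and all 8 genes had at least 1 such window (11 in all). The windows were searched on both strands for the octamer ATGCAAAT bound by Oct factors with OBF-1, for the Ikaros family core TGGGAA and for the interferon-stimulated response core GAAANNGAAA. These 3 motifs do not overlap in the windows printed, and matches are in capitals. The windows lie at chr13:30748983-30749282 (Irf4, plus strand), chr8:120736108-120736407 (Irf8, plus strand) and chr7:44997398-44997697 (Irf3, plus strand).
Irf4: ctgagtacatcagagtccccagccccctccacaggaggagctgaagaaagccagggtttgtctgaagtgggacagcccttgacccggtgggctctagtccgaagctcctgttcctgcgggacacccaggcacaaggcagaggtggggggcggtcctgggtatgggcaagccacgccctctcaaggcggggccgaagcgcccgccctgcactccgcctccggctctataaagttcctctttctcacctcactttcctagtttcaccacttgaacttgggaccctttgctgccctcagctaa
Irf8: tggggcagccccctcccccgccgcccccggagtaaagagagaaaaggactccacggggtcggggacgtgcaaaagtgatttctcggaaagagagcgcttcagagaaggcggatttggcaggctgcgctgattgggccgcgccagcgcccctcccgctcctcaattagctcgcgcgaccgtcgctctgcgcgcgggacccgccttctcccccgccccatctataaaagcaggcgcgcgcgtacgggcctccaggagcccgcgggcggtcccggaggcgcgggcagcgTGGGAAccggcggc
Irf3: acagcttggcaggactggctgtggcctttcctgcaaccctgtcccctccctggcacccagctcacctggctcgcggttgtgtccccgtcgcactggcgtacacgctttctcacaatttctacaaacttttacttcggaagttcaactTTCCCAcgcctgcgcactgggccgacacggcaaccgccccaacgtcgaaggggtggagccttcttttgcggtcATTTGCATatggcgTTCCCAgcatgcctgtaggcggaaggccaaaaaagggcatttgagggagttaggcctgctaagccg
The Irf4 window held none of the 3 motifs. The Irf8 window held 1 Ikaros family core, 37 bases after the start, and a second Irf8 window (chr8:120738389-120738688) held 1 at position -242. In the Irf3 window the octamer lay on the opposite strand, as ATTTGCAT beginning 30 bases before the start, between Ikaros family cores on the opposite strand at positions -103 and -16. Of the other members, Irf9 held 3 Ikaros family cores, Irf5 held 1, Irf2 held the response core as GAAAATGAAA at position -241, and Irf1 and Irf7 held none of the motifs. Among 32851 RefSeq promoter windows of this length, 1.74% held the octamer, 25.6% the Ikaros family core and 3.44% the response core. A match is a description of the letters and not a binding site.

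Irf4 mRNA was higher in pre-BII cells that lacked OBF-1, with or without Aiolos. The paper, with data not shown, reports equal expression of Irf4 and Irf8 in pre-BII cells of all its genotypes. Its array gene list used a 3-fold threshold, and the largest fold of a member against wild type here was 1.61. The Irf4 probe set 1421173_at had intensities of 2445 and 2690 in double-mutant, 1780 and 1640 in Aiolos single-mutant, 2331 and 2197 in OBF-1 single-mutant, and 1693 and 1493 in wild type pre-BII cells. The 4 arrays without OBF-1 spanned 2197 to 2690 and the 4 arrays with OBF-1 spanned 1493 to 1780, so these sets of arrays did not overlap, whereas the Aiolos single-mutant and wild type arrays did. The share of all probe sets with such a split by OBF-1 was not computed.

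The mean of Irf4 was 2567 ± 173 in double-mutant, 1710 ± 99.3 in Aiolos single-mutant, 2264 ± 94.3 in OBF-1 single-mutant and 1593 ± 142 in wild type cells (SD, n = 2 each). The double mutant exceeded wild type by a log2 difference of 0.69 (95% interval 0.47 to 0.91, limma adjusted p = 0.00127), a 1.61-fold change. The OBF-1 single mutant exceeded wild type by 0.51 (0.29 to 0.73, limma adjusted p = 0.0232), and the double mutant exceeded the Aiolos single mutant by 0.59 (0.36 to 0.81, limma adjusted p = 0.00793). Irf4 thus passed the test in both comparisons in which OBF-1 alone differed within 1 fluidics station. With the station as a block, the mean of these differences was 0.55 ± 0.0726 on the log2 scale (SE, limma adjusted p = 0.00085), a fit chosen after the data were seen.

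Loss of Aiolos was not followed by a detectable change of Irf4. The log2 difference was 0.10 (95% interval -0.12 to 0.33, limma adjusted p = 0.612) for the Aiolos single mutant against wild type and 0.18 (-0.04 to 0.40, limma adjusted p = 0.449) for the double mutant against the OBF-1 single mutant. The interaction, which is what remains of the double-mutant change once the changes of both single mutants are subtracted, was 0.08 (-0.24 to 0.39, limma adjusted p = 0.858). An additive log2 effect of the station cancels in this quantity. These intervals still allow log2 differences of up to 0.40 in the pairwise comparisons.

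The weaker Irf4 probe set, 1421174_at, had intensities of 157 and 152 in double-mutant, 126 and 120 in Aiolos single-mutant, 151 and 111 in OBF-1 single-mutant, and 126 and 112 in wild type cells. Both double-mutant arrays lay above all arrays of the other genotypes, but the 2 OBF-1 single-mutant arrays differed more than the arrays of any other genotype and overlapped wild type. Its log2 difference was 0.37 (95% interval 0.09 to 0.66, limma adjusted p = 0.11) for the double mutant and 0.12 (-0.16 to 0.41, limma adjusted p = 0.747) for the OBF-1 single mutant against wild type, so it passed the test in neither. It passed for the double mutant against wild type when either OBF-1 single-mutant array was left out (limma adjusted p = 0.0402 each).

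Leaving out single arrays, the Irf4 probe set 1421173_at stayed higher in the double mutant than in wild type throughout (limma adjusted p from 0.00216 to 0.0197). Its call in the OBF-1 single mutant was lost without any 1 of the 4 arrays compared, with limma adjusted p of 0.0565 and 0.182 without wild type replicate 1 and 2, and 0.144 and 0.0961 without OBF-1 single-mutant replicate 1 and 2. The call of the double mutant against the Aiolos single mutant was lost without Aiolos single-mutant replicate 2 (limma adjusted p = 0.0965) or double-mutant replicate 2 (limma adjusted p = 0.0812). Plasma cells also express Irf4, and the 5 measured plasma cell markers summed to 1757 to 1851 in double-mutant, 1297 to 1452 in Aiolos single-mutant, 1582 to 1675 in OBF-1 single-mutant and 1261 to 1279 in wild type cells. Of these 5, Sdc1 passed the test (limma adjusted p = 9.64e-05), with a mean of 797 in the double mutant and 405 in wild type. The other 4 did not pass: Jchain had means of 179 in the double mutant and 110.5 in wild type, Xbp1 751 in the double mutant and 669 in wild type, Prdm1 55.3 in the double mutant and 63.3 in wild type, and Tnfrsf17 21.6 in the double mutant and 22.1 in wild type. The higher sum of the double mutant thus came mostly from Sdc1. The part of such cells in the Irf4 difference was not tested.

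**Figure D1:**
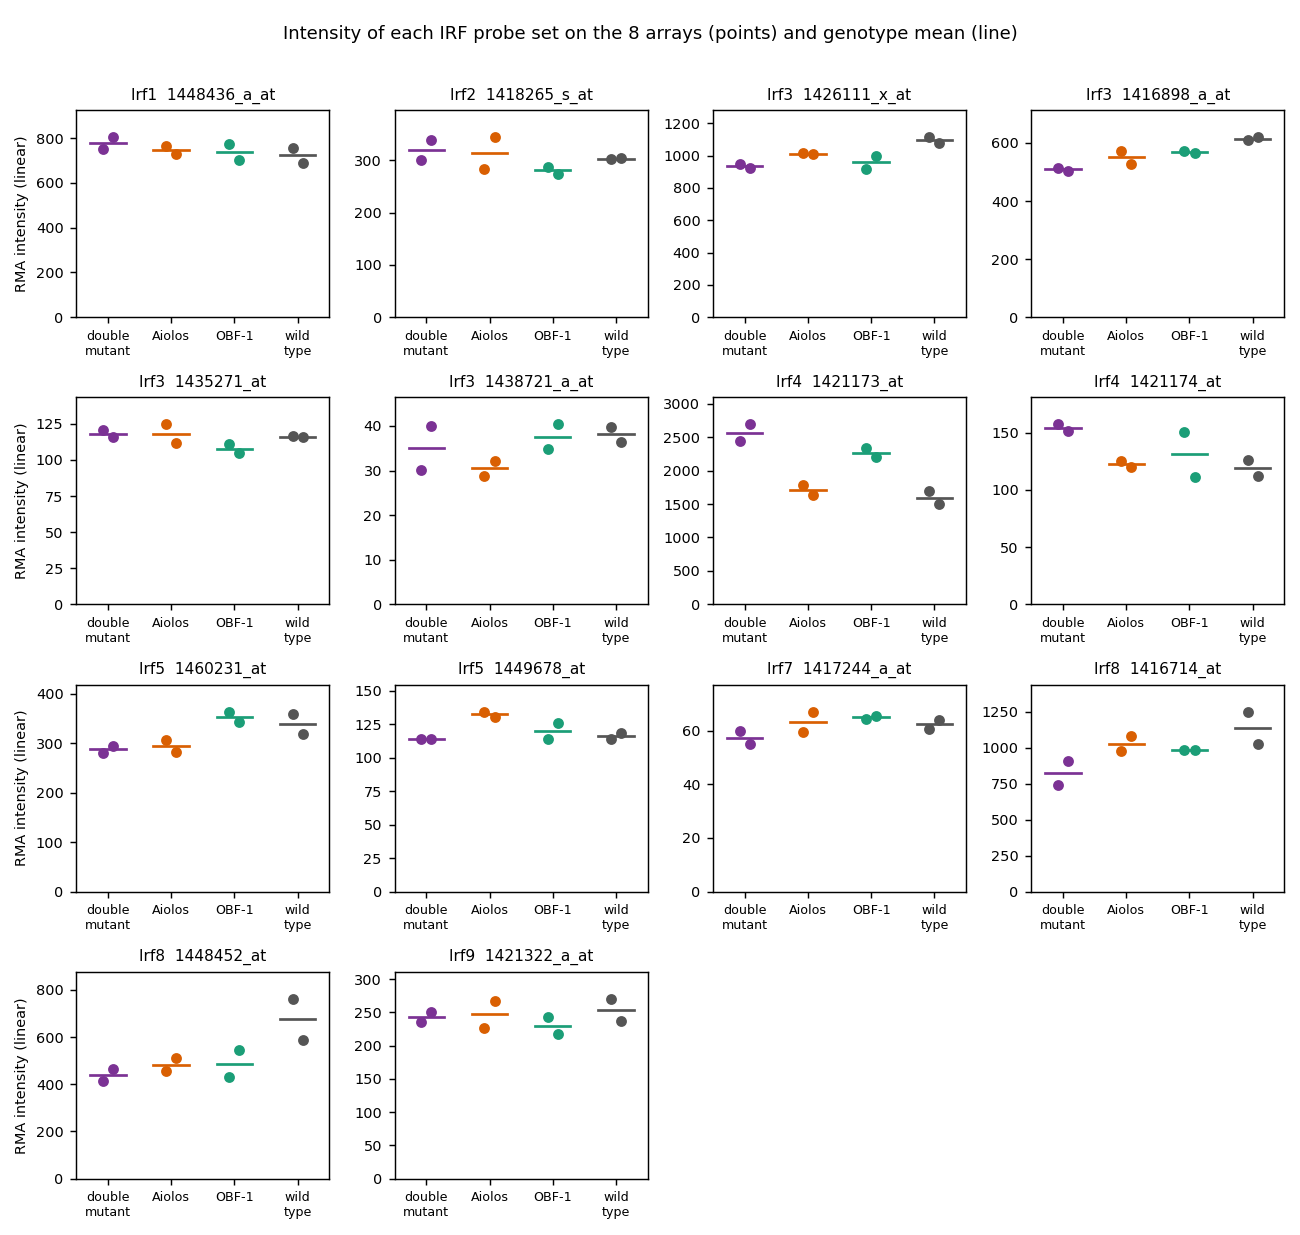
RMA intensity on a linear axis from 0 (vertical) of each of the 14 IRF probe sets by genotype (horizontal), with 1 point per array and a line at the genotype mean. Irf4 1421173_at lies at 2197 to 2690 on the 4 arrays without OBF-1 and at 1493 to 1780 on the 4 with OBF-1, and both Irf8 probe sets are highest on a wild type array.

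Irf8 mRNA was lower in double-mutant than in wild type pre-BII cells on both of its probe sets. Wild type exceeded the double mutant 1.38-fold (1416714_at) and 1.52-fold (1448452_at). These folds lay below the 3-fold threshold of the paper's array gene list, so they need not go against its report of equal expression. Irf8 1416714_at had intensities of 744 and 907 in double-mutant, 975 and 1078 in Aiolos single-mutant, 983 and 982 in OBF-1 single-mutant, and 1252 and 1029 in wild type cells. Irf8 1448452_at had intensities of 413 and 467 in double-mutant, 457 and 511 in Aiolos single-mutant, 431 and 544 in OBF-1 single-mutant, and 763 and 587 in wild type cells. On both probe sets the double-mutant arrays lay below both wild type arrays, and wild type replicate 1 was the highest of the 8 arrays.

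The mean of Irf8 1416714_at was 825 ± 116 in the double mutant and 1140 ± 157 in wild type (SD, n = 2 each), a log2 difference of -0.47 (95% interval -0.74 to -0.20, limma adjusted p = 0.036). For Irf8 1448452_at it was 440.0 ± 37.8 in the double mutant and 675 ± 124 in wild type (SD, n = 2 each), a log2 difference of -0.61 (-0.92 to -0.29, limma adjusted p = 0.0218). Double-mutant and wild type arrays were washed on different fluidics stations, so station and genotype cannot be told apart in these 2 calls. The single mutants had intermediate means on both probe sets, and none of their differences from wild type passed the test.

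In the Aiolos single mutant, Irf8 differed from wild type by -0.15 (1416714_at, limma adjusted p = 0.546) and -0.47 (1448452_at, limma adjusted p = 0.119) in log2 units. The corresponding log2 differences of the OBF-1 single mutant were -0.21 (1416714_at, limma adjusted p = 0.519) and -0.47 (1448452_at, limma adjusted p = 0.154). Neither did the double mutant differ detectably from the Aiolos single mutant, with -0.32 (limma adjusted p = 0.224) and -0.14 (limma adjusted p = 0.681), or from the OBF-1 single mutant, with -0.26 (limma adjusted p = 0.350) and -0.14 (limma adjusted p = 0.709). The interaction of the deletions was -0.11 (95% interval -0.49 to 0.27) for 1416714_at and 0.33 (-0.12 to 0.77) for 1448452_at, so the probe sets did not give it the same sign, and it passed the test for neither (limma adjusted p = 0.823 and 0.539). Within the fluidics stations, the loss of OBF-1 gave log2 differences of -0.26 (1416714_at, limma adjusted p = 0.145) and -0.30 (1448452_at, limma adjusted p = 0.205) for Irf8.

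The Irf8 calls rested on few arrays. Without wild type replicate 1 the double-mutant differences were -0.33 (1416714_at, limma adjusted p = 0.24) and -0.42 (1448452_at, limma adjusted p = 0.179), and without double-mutant replicate 1 they were -0.32 (limma adjusted p = 0.253) and -0.52 (limma adjusted p = 0.158). For 1416714_at the call was also lost without either OBF-1 single-mutant array (limma adjusted p = 0.0504 each), which enter only through the shared estimate of the spread. Mature B cells, dendritic cells and monocyte precursors also express Irf8. Of the 13 measured granulocyte and monocyte markers, 7 were higher and 0 lower in the double mutant than in wild type. Their sums were 28628 to 29078 in the double mutant and 23122 to 23177 in wild type. The 4 measured mature B cell markers summed to 2404 to 2411 in double-mutant, 2999 to 3395 in Aiolos single-mutant, 2907 to 3026 in OBF-1 single-mutant and 3667 to 3953 in wild type cells. Of these 4, 2 were lower and 1 was higher in the double mutant than in wild type. Ms4a1, the gene of CD20, was lower, with a mean of 615 in the double mutant and 2450 in wild type, as was Fcer2a, with 37.2 in the double mutant and 53.9 in wild type. Cd22 was higher, with 1722 in the double mutant and 1268 in wild type, and Cr2 did not pass, with 33.4 in the double mutant and 38.0 in wild type. The lower sum of the double mutant thus came from Ms4a1, as Cd22 rose and Fcer2a and Cr2 were dim. The paper lists Ms4a1 among genes that earlier work found to depend on OBF-1. Of 8 measured dendritic cell markers, 2 reached 100. All 8 summed to 434 to 458 on double-mutant and 440 to 461 on Aiolos single-mutant arrays. On wild type arrays the sums were 473 to 515, and where OBF-1 alone was missing they were 559 to 613. These sums were thus not highest in wild type, whereas the Irf8 means were. Of the 8, only Cox6a2 passed the test (limma adjusted p = 0.0498), with means of 142 (double mutant) and 185 (wild type). The lower sum of the double mutant thus came mostly from Cox6a2. The part of such cells in the Irf8 difference was not tested.

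**Figure D2:**
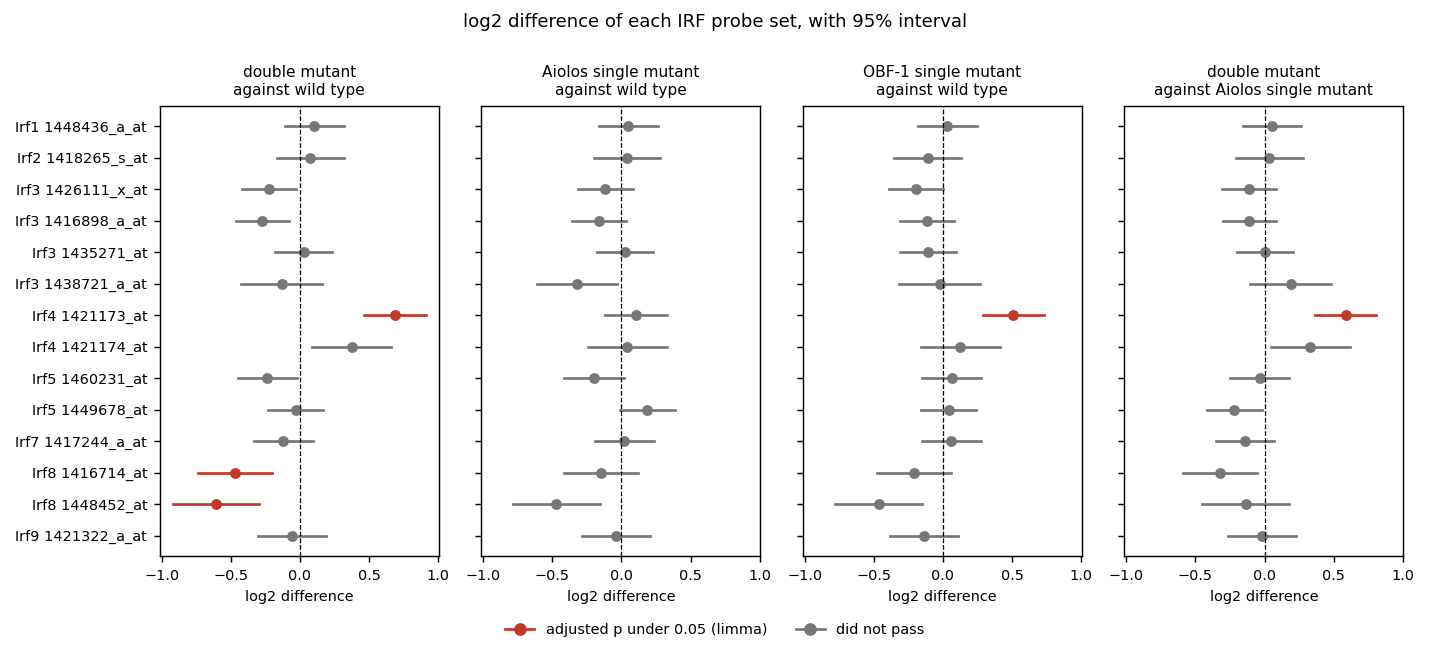
log2 difference (horizontal) of each of the 14 IRF probe sets (vertical) in 4 of the 6 comparisons, with points for the fitted difference, bars for the 95% interval, and red for a limma adjusted p under 0.05. Red points occur for Irf4 1421173_at, at 0.69, 0.51 and 0.59, and for both Irf8 probe sets in the double mutant against wild type, at -0.47 and -0.61.

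The other members of the family passed the test in none of the 6 comparisons. The genes of IRF1 and IRF2, the activator and the antagonist, had double-mutant and wild type arrays that overlapped. Irf1 had intensities of 750 and 803 in double-mutant, 764 and 730 in Aiolos single-mutant, 775 and 703 in OBF-1 single-mutant, and 756 and 690 in wild type cells, with a log2 difference of 0.10 between double mutant and wild type (95% interval -0.11 to 0.32, limma adjusted p = 0.612). Irf2 had intensities of 301 and 340 in double-mutant, 283 and 344 in Aiolos single-mutant, 288 and 275 in OBF-1 single-mutant, and 303 and 304 in wild type cells, with a log2 difference of 0.08 (-0.16 to 0.32, limma adjusted p = 0.769). The Irf2 probe set can hybridize to more than 1 transcript, and the Irf2 gene overlaps 2 long noncoding RNA genes, Gm31172 and Gm39170.

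Among the factors activated by nucleic acid sensing, Irf3 came nearest to a call. Irf3 1416898_a_at had intensities of 514 and 505 in double-mutant, 572 and 529 in Aiolos single-mutant, 571 and 564 in OBF-1 single-mutant, and 610 and 619 in wild type cells. All 6 mutant arrays of this probe set lay below both wild type arrays, with a log2 difference of -0.27 for the double mutant (95% interval -0.46 to -0.08, limma adjusted p = 0.0888, and 0.0404 when probe sets below an intensity of 100 were left out). Irf3 1426111_x_at, which can bind several transcripts, had intensities of 949 and 924 in double-mutant, 1015 and 1007 in Aiolos single-mutant, 917 and 999 in OBF-1 single-mutant, and 1113 and 1077 in wild type cells, and again all 6 mutant arrays lay below wild type (-0.23 for the double mutant, limma adjusted p = 0.166). The share of all probe sets with all 6 mutant arrays below wild type was not computed. For the double mutant alone, 23.3% of all probe sets had both arrays below both wild type arrays. The Irf3 probe sets 1435271_at, at 105 to 125 over all 8 arrays, and 1438721_a_at, at 28.9 to 40.3, had double-mutant and wild type arrays that overlapped, so the 4 Irf3 probe sets did not behave alike.

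IRF5 acts in Toll-like receptor signalling. Irf5 1460231_at had intensities of 280 and 295 in double-mutant, 307 and 283 in Aiolos single-mutant, 364 and 342 in OBF-1 single-mutant, and 358 and 319 in wild type cells. The 4 arrays without Aiolos lay below the 4 arrays with Aiolos, a split that is also that of the fluidics stations. How many of all probe sets split in this way was not computed. The log2 difference was -0.24 for the double mutant against wild type (95% interval -0.45 to -0.02, limma adjusted p = 0.188), -0.20 for the Aiolos single mutant against wild type (limma adjusted p = 0.299) and -0.30 for the double mutant against the OBF-1 single mutant (limma adjusted p = 0.164). The other Irf5 probe set, 1449678_at, did not follow this split, with 113 and 114 in double-mutant, 134 and 130 in Aiolos single-mutant, 114 and 126 in OBF-1 single-mutant, and 114 and 118 in wild type cells. The Irf5 gene overlaps Tnpo3.

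Irf7, which amplifies type I interferon production and is itself induced by interferon, stayed below an intensity of 100, with 59.7 and 55.0 in double-mutant, 59.5 and 67.1 in Aiolos single-mutant, 64.3 and 65.6 in OBF-1 single-mutant, and 60.6 and 63.9 in wild type cells. Its double-mutant difference from wild type was -0.12 on the log2 scale (95% interval -0.33 to 0.09, limma adjusted p = 0.543). Irf9 had intensities of 236 and 251 in double-mutant, 227 and 267 in Aiolos single-mutant, 243 and 217 in OBF-1 single-mutant, and 271 and 237 in wild type cells. The Irf9 arrays of all genotypes overlapped, and the double-mutant difference was -0.06 (-0.30 to 0.19, limma adjusted p = 0.838). Over the 10 probe sets of the 6 genes other than Irf4 and Irf8, the 95% intervals of the mutants against wild type reached from -0.61, for the dim Irf3 1438721_a_at, to 0.39 on the log2 scale.

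Counted over the family, 1 of the 14 probe sets was higher and 2 were lower in the double mutant than in wild type, where 4.29% of all probe sets were higher and 4.28% lower (of main probe sets, 1 per gene, 4.88% and 4.11%). At an unadjusted p under 0.05 there were 7 of 14, against 4837 of 22626, and the median log2 difference was -0.09 over the family and 0.01 over all probe sets. Both double-mutant arrays lay above both wild type arrays for 2 of the 14, with a background of 25.9%, and below them for 7, with a background of 23.3%. The 7 lower ones were probe sets of Irf3, Irf5, Irf7 and Irf8. In the OBF-1 single mutant against wild type, 1 of the 14, Irf4, was higher (background 0.946%) and none was lower (background 1.14%). There, 2 of the 14 had an unadjusted p under 0.05, against 3012 of 22626. The same Irf4 probe set was the 1 higher in the double mutant than in the Aiolos single mutant (background 1.75%), and none was lower (background 1.19%). In that comparison 4 of the 14 had an unadjusted p under 0.05, against 3659 of 22626.

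In the remaining comparisons limma called 0 of the 14. These were the Aiolos single mutant against wild type (backgrounds 0.831% higher and 1.01% lower), the double mutant against the OBF-1 single mutant (1.61% and 1.03%) and the interaction (0.155% and 0.0309%). Without moderation of the variances these counts were also 0. At an unadjusted p under 0.05 the Aiolos single mutant had 2 of the 14, against 4261 of 22626 probe sets. The double mutant against the OBF-1 single mutant had 1, Irf5 1460231_at, against 3403, and the interaction had 0, against 2677. The comparisons with wild type share the wild type arrays and are not independent of each other.

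Genes that IRF4 and IRF8 are known to act on in B cells included the most changed genes around the family. Of 18 measured, 5 were higher and 2 lower in the double mutant than in wild type (median log2 difference 0.09, against 0.01 over all genes). The shares over all genes were 4.88% higher and 4.11% lower. This list, like the other lists below, was chosen with earlier results of these data known, so its count is a description only. Vpreb1 and Igll1 encode the surrogate light chain and were the genes the study itself followed. Vpreb1 had 3360 ± 167 in the double mutant and 193 ± 3.04 in wild type (SD, n = 2 each), a log2 difference of 4.12 (limma adjusted p = 6.66e-10). Igll1, measured with a probe set that can bind several transcripts, had 5656 ± 351 in the double mutant and 304 ± 33.1 in wild type, a log2 difference of 4.22 (limma adjusted p = 6.66e-10). Both were also higher in the Aiolos single mutant, where no member of the family passed the test. There Vpreb1 had a mean of 1405 (log2 difference 2.87) and Igll1 2989 (3.30, limma adjusted p = 2.57e-08 each). In the OBF-1 single mutant the means were 434 (Vpreb1, 1.17, limma adjusted p = 3.77e-05) and 542 (Igll1, 0.84, limma adjusted p = 0.00118).

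Il7r encodes the interleukin 7 receptor chain, and its mean was 3307 ± 332 in double-mutant, 2159 ± 181 in Aiolos single-mutant, 2692 ± 17.4 in OBF-1 single-mutant and 1798 ± 36.3 in wild type cells (SD, n = 2 each). Like Irf4, it passed the test in the double mutant (log2 difference 0.88, limma adjusted p = 0.00021) and in the OBF-1 single mutant (0.58, limma adjusted p = 0.0115) against wild type, and in the double mutant against the Aiolos single mutant (0.61, limma adjusted p = 0.00578). Ccnd2, the gene of the G1 cyclin D2, was lower in the same 3 comparisons. Its mean was 179 ± 34.0 in double-mutant, 291 ± 35.0 in Aiolos single-mutant, 152 ± 34.8 in OBF-1 single-mutant and 336 ± 34.7 in wild type cells (SD, n = 2 each), with a log2 difference of -0.92 between double mutant and wild type (limma adjusted p = 0.00465). The other 3 that passed in the double mutant, named here after their values were seen, were the recombinase gene Rag2 (0.70, limma adjusted p = 0.0139) and the adaptor gene Blnk (0.41, limma adjusted p = 0.0136), which were higher, and the B-lineage factor gene Ebf1 (-0.51, limma adjusted p = 0.0177), which was lower. Rag1, on the same list, did not pass (-0.19, limma adjusted p = 0.354). The paper, with data not shown, reports unaltered expression of the RAG genes. It also reports no major change of SLP65, the protein of Blnk. Its array gene list used a 3-fold threshold, which Rag2 and Blnk did not reach here.

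Interferon-stimulated genes did not move together. Of 24 measured, 1 was higher and 2 were lower in the double mutant than in wild type, with a median log2 difference of -0.08. Over all genes, 4.88% were higher and 4.11% lower. Trim25, a ubiquitin ligase gene of the RIG-I pathway measured with a probe set that can bind several transcripts, had 1901 ± 106 in double-mutant, 1874 ± 80.9 in Aiolos single-mutant, 1466 ± 142 in OBF-1 single-mutant and 1137 ± 20.6 in wild type cells (SD, n = 2 each). Trim25 was thus higher in the double mutant (0.74, limma adjusted p = 0.000638) and in the Aiolos single mutant (0.72, limma adjusted p = 0.00617) than in wild type. Oas1a, an oligoadenylate synthetase gene, had 165 ± 7.94 in double-mutant, 240 ± 8.34 in Aiolos single-mutant, 165 ± 17.0 in OBF-1 single-mutant and 247 ± 28.3 in wild type cells (SD, n = 2 each). Oas1a was lower without OBF-1, with log2 differences of -0.57 in the double mutant (limma adjusted p = 0.00683) and -0.58 in the OBF-1 single mutant (limma adjusted p = 0.0178) against wild type, and -0.54 in the double mutant against the Aiolos single mutant (limma adjusted p = 0.0208). Oasl1 was lower in the double mutant than in wild type (-0.40, limma adjusted p = 0.0421), and Ifi35 did not pass (-0.35, limma adjusted p = 0.0505). Another synthetase gene, Oas2, named after its values were seen, was higher in the Aiolos single mutant at 236 ± 25.8 than in wild type at 149 ± 6.70 (SD, n = 2 each; log2 difference 0.66, limma adjusted p = 0.0159).

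Of 18 measured genes of class I presentation and other IRF1 targets, 1 was lower and 0 higher in the double mutant than in wild type (4 at an unadjusted p under 0.05, median log2 difference -0.06). The gene was Socs1, an inhibitor of cytokine signalling through Janus kinases, with 61.7 ± 6.29 in double-mutant, 115 ± 1.07 in Aiolos single-mutant, 124 ± 17.8 in OBF-1 single-mutant and 161 ± 3.39 in wild type cells (SD, n = 2 each). Its log2 difference between double mutant and wild type was -1.39 (limma adjusted p = 1.28e-05), and Socs1 was also lower in the double mutant than in the Aiolos single mutant (-0.91, limma adjusted p = 0.000733) and the OBF-1 single mutant (limma adjusted p = 5e-04). Psmb10, a subunit gene of the immunoproteasome (-0.28, limma adjusted p = 0.0761), the cytokine gene Il15 (-0.36, limma adjusted p = 0.0861) and Tapbp, the gene of the peptide-loading protein tapasin (-0.27, limma adjusted p = 0.091), did not pass. Among all genes, 4.11% were lower and 4.88% higher in the double mutant, and 2643 of 12393 had an unadjusted p under 0.05.

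Of 29 measured partners and upstream regulators of the family, 1 was lower and 0 higher (6 at an unadjusted p under 0.05, median log2 difference 0.01). It was Rel, the gene of the NF-kB subunit c-Rel, an activator of Irf4 in stimulated B cells, with 70.3 ± 3.87 in double-mutant, 99.8 ± 9.83 in Aiolos single-mutant, 76.7 ± 2.57 in OBF-1 single-mutant and 109 ± 6.76 in wild type cells (SD, n = 2 each). Rel was lower in the double mutant (-0.63, limma adjusted p = 0.00224) and the OBF-1 single mutant (-0.50, limma adjusted p = 0.0244) than in wild type and in the double mutant than in the Aiolos single mutant (-0.50, limma adjusted p = 0.0203), the 3 comparisons in which Irf4 was higher. Spib, the gene of the partner Spi-B, had 4201 ± 21.8 in the double mutant and 5186 ± 268 in wild type (SD, n = 2 each) and did not pass (-0.30, limma adjusted p = 0.0625), nor did Ets1, measured with a probe set that can bind several transcripts (-0.30, limma adjusted p = 0.0802), or Tlr9 (-0.31, limma adjusted p = 0.0951). The same shares over all genes apply here, 4.11% lower and 4.88% higher, with 2643 of 12393 at an unadjusted p under 0.05.

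**Figure D3:**
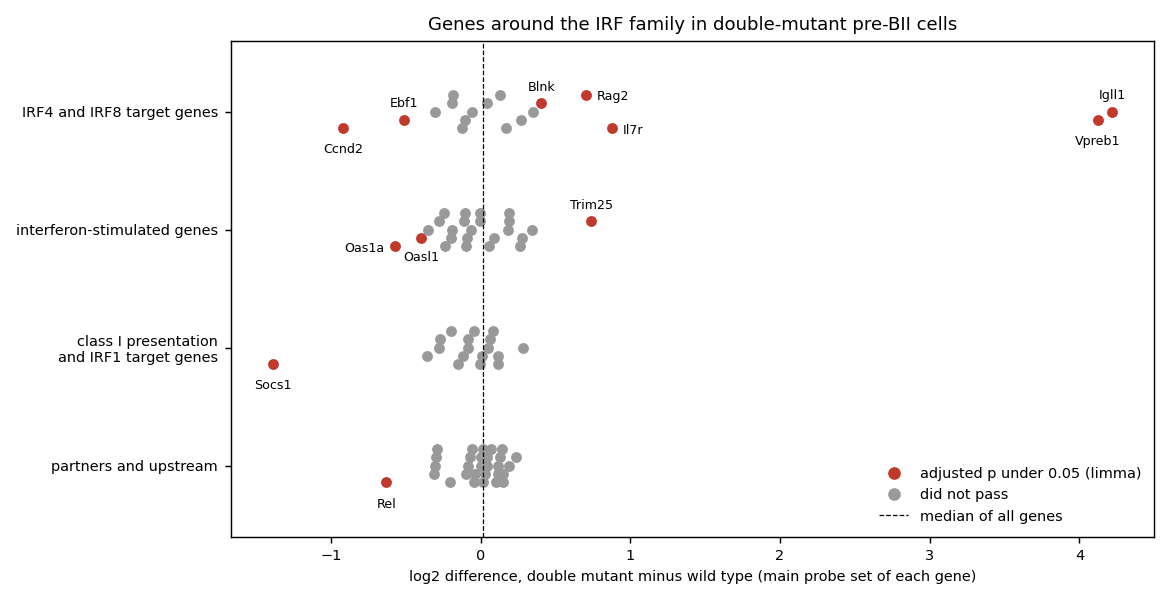
log2 difference, double mutant minus wild type (horizontal), of the main probe set of each measured gene in 4 lists around the IRF family (vertical; 18, 24, 18 and 29 genes from top to bottom), with red for a limma adjusted p under 0.05 and a dashed line at the median of all genes. Vpreb1 and Igll1 lie at 4.12 and 4.22, and most other genes lie near the median.

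The genes whose log2 intensity followed Irf4 most closely over the 8 arrays, among 6242 candidates, were Saraf (r = 0.979), Mylip (r = 0.978) and Themis2 (r = 0.973). Saraf, for example, had a mean of 599 in double-mutant, 360 in Aiolos single-mutant, 513 in OBF-1 single-mutant and 353 in wild type cells. For Irf8 they were Atp6v1h (r = 0.958), Kif23 (r = 0.955) and Ypel5 (r = 0.954). Irf4 1421173_at and Irf8 1416714_at had a correlation of -0.67 over the 8 arrays, and the Irf4 probe sets had one of 0.76 with each other. These are descriptions over arrays that share genotypes, and no test was made.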

How the data were processed

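Sorted pre-BII cells of 4 genotypes were measured on 8 MOE430A GeneChips, 2 per genotype. The authors deposited intensity values on a linear scale, made by RMA, which subtracts background, brings all arrays to 1 distribution and combines the probes of a set. The RMA version is not given in the sources used here, and the methods of the study name Microarray suite and GeneSpring instead. The scanner-side experiment reports were used for the fluidics station only.

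Of 22690 probe sets, 64 controls were left out and 22626 were tested as log2 intensity with limma 3.58.1 (R 4.3.3). The model had a mean for each genotype, and variances were moderated with 7.69 prior degrees of freedom beside 4 residual ones. The threshold was an adjusted p of 0.05 (Benjamini-Hochberg, all probe sets). Annotation gave 1 symbol for 20380 probe sets, several for 691 and none for 1555. The main probe set of a gene was the one with the highest mean log2 intensity among those of that gene alone, and context lists used it.

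The members and lists were chosen with earlier results of these data known. Every member probe set is given, of each of 4 context lists up to 4 genes with the smallest p between double mutant and wild type, and for each called gene the 3 genes that correlated best with it. The 4 lists were partners and upstream, interferon-stimulated genes, IRF4 and IRF8 target genes, and class I presentation and IRF1 target genes. Marker lists of 8 cell types were summed per array. Alternatives were further normalization, an intensity filter, no moderation, robust moderation with a trend, the replicate number as a block (replicate block), a fit to the compared genotypes alone, the mean of the probe sets of a gene, the threshold of the study, leaving out each array and, added later, the station as a block. The fit was tested on simulated data. The number of arrays limits the precision.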

Additional observations from a re-analysis of the deposited data

How the results depend on the processing

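Of 1296 values of members under the alternatives, 1274 kept their direction where called and their side of the threshold, 19 lost the call, 3 gained it and 0 reversed. Most of these values were not called in the main fit, so they had no call to lose. The lost calls fall on the few Irf4 and Irf8 results that were called. The number of the 14 probe sets called was 3 for the double mutant against wild type, 1 for the OBF-1 single mutant against wild type and 1 for the double mutant against the Aiolos single mutant. Without moderation of the variances each was 0, with 359, 9 and 22 of all probe sets still called in place of 1938, 472 and 667, and the cause was not tested. Leaving out each array in turn gave 1 to 3 (1 without wild type replicate 1 or double-mutant replicate 1), 0 to 1 (0 without any wild type or OBF-1 single-mutant array) and 0 to 1 (0 without Aiolos single-mutant replicate 2 or double-mutant replicate 2). A lone array left in a genotype was assumed to vary like the others. Under the 3-fold and unadjusted p threshold of the study, 0 of the 14 passed in any mutant in place of 3, since the largest fold was 1.61. As the mean of its probe sets, Irf4 in the OBF-1 single mutant gave 0.32 (limma adjusted p = 0.148). Irf8 1416714_at in the double mutant had a limma adjusted p of 0.0582 with only the compared genotypes in the fit. Same-numbered replicates of different genotypes had correlations of -0.07 to 0.19 in their deviations over 9805 probe sets. With 2 arrays per genotype these values cannot exclude that the numbers pair the arrays. With a replicate block the member counts stayed at 3, 1 and 1. Further normalization of the arrays and the trend and robust fit moved no member across the threshold.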
